A study of Homo sapiens with 8 samples.

Results

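The proteasome genes described here were the 50 gene symbols that begin with PSMA to PSMG followed by a number, together with POMP and ADRM1, out of 60196 symbols that stood on a single row of each deposited table. They comprised 19 genes of the core particle (8 PSMA and 11 PSMB), 6 PSMC ATPases and 14 PSMD genes, grouped here as lid or base. Of the PSMD genes 3 (PSMD5, PSMD9 and PSMD10) are assembly chaperones of the base. The other 11 genes were activators, inhibitor, core assembly chaperones and the ubiquitin receptor ADRM1. RNA-seq counts came from 8 libraries, with 2 libraries each of a P-body preparation and of the cytosolic fraction from HEL and from MOLM-13. HEL is an erythroleukaemia cell line and MOLM-13 an acute myeloid leukaemia line of monocytic character, and per the labels both were grown in RPMI 1640 with serum and beta-mercaptoethanol, with no other treatment named. How the P-bodies were isolated, and whether libraries of a group came from separate cultures, are not stated in the sources used here. The p-values therefore measure the spread among these particular libraries, and that spread may be technical only.

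The proteasome is the protease that degrades proteins tagged with ubiquitin. Its core particle is a barrel of stacked rings, in which the outer PSMA rings gate the entrance and the inner PSMB rings carry the proteolytic sites. A regulatory particle caps the barrel: its base holds the ring of PSMC ATPases that unfold and thread the substrate, and its lid, built from PSMD subunits, removes the ubiquitin chain. Subunits are needed in fixed proportions, and dedicated chaperones assemble the rings. P-bodies are granules in the cytoplasm, made of RNA and protein, that hold mRNAs withdrawn from translation together with decay factors, and the comparison of the P-body with the cytosolic fraction asks which mRNAs are relatively abundant there.

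Total counts ran from 13153551 to 18071473 in HEL and from 5897625 to 11000536 in MOLM-13. The 10 erythroid and megakaryocytic markers each had a mean above 1 CPM in both HEL groups, and the 10 monocytic and granulocytic markers did so in both MOLM-13 groups. Lymphoid markers summed to 1.77 to 3 CPM in HEL and to 80.6 to 143 CPM in MOLM-13. The 13 mRNAs encoded in mitochondria were each lower in the P-body libraries of both lines, with a summed level of 3750 to 4030 CPM against 6200 to 6980 CPM in HEL and of 5420 to 5550 CPM against 8050 to 9090 CPM in MOLM-13. The 2 nuclear-retained RNAs on a marker list summed to 655 to 719 CPM in the P-body and 671 to 749 CPM in the cytosolic libraries of HEL, and to 3350 CPM against 4590 to 4930 CPM in MOLM-13, where both were called lower in P-bodies, and the part of such carry-over in the results was not tested. Levels below are TMM-scaled CPM (counts relative to the scaled library size). Changes are log2 ratios of P-body over cytosol from edgeR. Their standard error (SE) was derived as the absolute log2 change over the square root of the F statistic of the edgeR test. A gene was called higher or lower at a Benjamini-Hochberg adjusted p below 0.05 over all genes tested.

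Proteasome mRNAs did not move together. In HEL, where 54.6% of 14772 tested genes were called, 27.5% higher and 27.1% lower, 13 of the 48 tested members were higher in P-bodies and 12 lower. In MOLM-13, where 60.8% of 14089 genes were called, 32.4% higher and 28.5% lower, 17 members were higher and 15 lower. These shares, 27.1% and 25% in HEL and 35.4% and 31.2% in MOLM-13, lay close to those of all genes. The median log2 change of the members was 0.013 in HEL and 0.0034 in MOLM-13, against -0.062 and -0.037 over all tested genes. The spread among members was wide, from -0.68 to 1.19 in HEL and from -0.60 to 1.95 in MOLM-13, and the changes of at least 2-fold were increases, of 2 members in HEL and 6 in MOLM-13. PSMA8, a testis-associated alpha subunit, and PSMB11, the thymus-specific catalytic subunit, had 0 to 2 counts in each library and were not tested.

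Subunit groups differed in where their members lay. Of the 6 ATPases, 4 were called in each line, each of them higher in P-bodies, and the median log2 change was 0.50 in HEL and 0.77 in MOLM-13. Of the 14 PSMD genes, 5 were higher and 3 lower in HEL (median 0.0067) and 6 were higher and 3 lower in MOLM-13 (median 0.14). Of the 17 tested core genes, 3 were higher and 3 lower in HEL (median 0.011) and 6 were higher and 7 lower in MOLM-13 (median -0.014). Within the core the rings parted in MOLM-13, with 5 of 7 alpha genes higher and 1 lower, and 1 of 10 beta genes higher and 6 lower. The medians were 0.62 for PSMA and -0.25 for PSMB there, and 0.20 and -0.062 in HEL. Members are not replicates, so these medians are a description with no test. G or C filled 31.76% to 46.47% of last codon positions in the tested alpha genes other than PSMA7 (62.1%), the 1 called lower in MOLM-13. In the tested beta genes it filled 53.07% to 76.19%, other than in PSMB1 (49.79%), the 1 called higher there. Whether the rings differed apart from this composition was not tested. When library totals replaced the TMM factors, the median of all genes was -0.39 in HEL and -0.48 in MOLM-13, and on that scale the ATPase medians were 0.17 and 0.33 while the core and PSMD medians were -0.31 and -0.32 in HEL and -0.45 and -0.30 in MOLM-13.

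**Figure D1:**
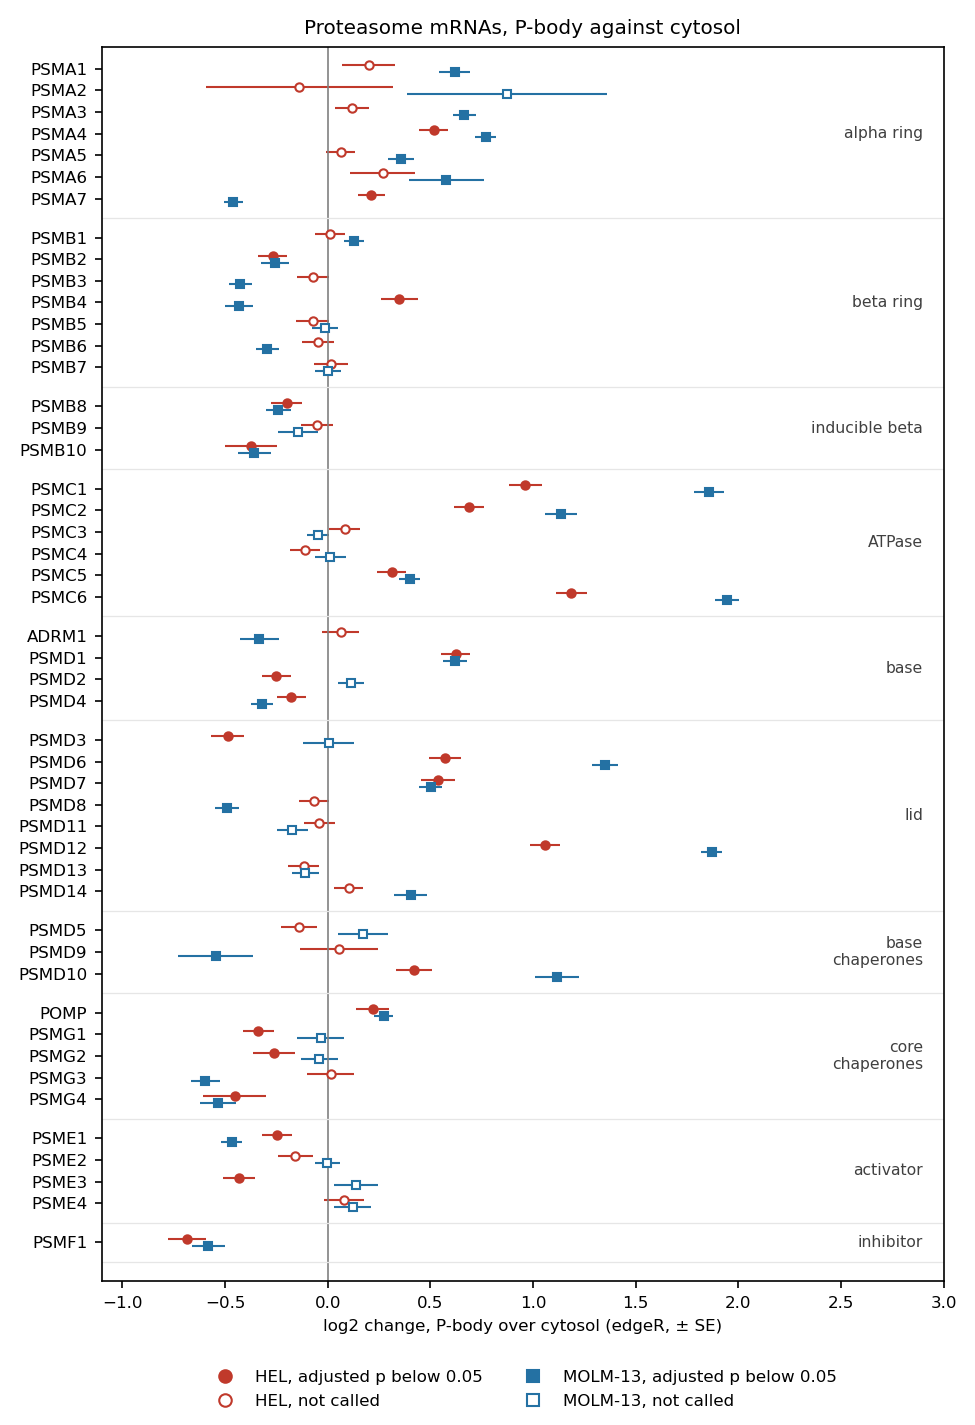
Log2 change of P-body over cytosol (x axis, with SE) for the 48 tested proteasome genes, ordered by role (y axis). Circles stand for HEL and squares for MOLM-13, and filled symbols mark an adjusted p below 0.05; PSMC6, PSMD12 and PSMC1 lie farthest to the right in both lines, at 0.96 to 1.19 in HEL and 1.86 to 1.95 in MOLM-13.

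The share of all counts is on the scale of library totals. The median log2 change of all genes on that scale was -0.39 in HEL and -0.48 in MOLM-13. A lower share is thus not in itself a fall relative to other genes. The share was higher in P-bodies for PSMC and lower for PSMB in both lines, without overlap. PSMC genes took 0.124% of counts in each HEL P-body library against 0.109% in each HEL cytosolic library, and 0.109% in each MOLM-13 P-body library against 0.0862% and 0.0871% in the cytosolic ones. PSMB genes took 0.128% and 0.135% in HEL P-bodies against 0.177% and 0.170% in cytosol, and 0.114% and 0.119% against 0.173% and 0.177% in MOLM-13. PSMD genes took 0.288% and 0.286% in HEL P-bodies against 0.316% and 0.315% in cytosol, and 0.160% and 0.159% against 0.152% and 0.158% in MOLM-13. PSMA genes took 0.142% and 0.148% against 0.155% and 0.145% in HEL, overlapping, and 0.129% and 0.133% against 0.159% and 0.158% in MOLM-13. The summed PSMA share was thus lower in MOLM-13 P-bodies although 5 of 7 alpha genes were called higher there. Share and calls are on unlike scales. A share divides by all counts. The calls used TMM factors of 0.858 to 0.86 in MOLM-13 P-bodies and 1.16 to 1.17 in cytosol. The sum also weighs abundant genes such as PSMA7 most.

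The 6 ATPases form the hexameric motor at the entrance to the core particle. Each carries a Walker A loop, the glycine-rich stretch that binds the phosphates of ATP. The coding bases around this loop are printed from GENCODE release 29 on GRCh38 because the ATPases differ in the bases that encode this stretch; each line gives 20 codons, 5′ to 3′ in reading direction, with capitals for G or C at the third position of a codon.
PSMC6: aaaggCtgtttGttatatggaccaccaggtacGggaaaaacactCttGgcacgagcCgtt
PSMC1: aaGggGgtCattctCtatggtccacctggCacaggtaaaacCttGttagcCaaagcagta
PSMC2: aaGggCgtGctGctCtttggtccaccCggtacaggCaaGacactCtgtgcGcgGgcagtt
PSMC5: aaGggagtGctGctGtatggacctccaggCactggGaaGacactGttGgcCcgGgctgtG
PSMC4: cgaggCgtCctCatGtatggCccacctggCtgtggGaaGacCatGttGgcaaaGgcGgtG
PSMC3: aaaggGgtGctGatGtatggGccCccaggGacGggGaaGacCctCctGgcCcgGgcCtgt
The PSMC6 window spans exons 7 and 8 of 14 at chr14:52713941-52718112 on the plus strand, and the PSMC1 window exons 7 and 8 of 11 at chr14:90265133-90268249 (plus). The PSMC2 window lies in exon 9 of 13 at chr7:103364179-103364238 (plus), and the PSMC5 window in exons 6 and 7 of 12 at chr17:63830499-63830865 (plus). The PSMC4 window lies in exon 6 of 11 at chr19:39974753-39974812 (plus), and the PSMC3 window in exon 7 of 12 at chr11:47422845-47422904 (minus). Of the 20 codon-final positions, G or C filled 6 in PSMC6, 8 in PSMC1, 11 in PSMC2, 12 in PSMC5, 14 in PSMC4 and 16 in PSMC3. Over the whole coding sequences the share was 35.73%, 46.82%, 42.96%, 61.33%, 71.53% and 73.58% in the same order.

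PSMC6 had the largest log2 change among the members in both lines. Its level was 311 and 305 CPM in the HEL P-body libraries and 142 and 128 CPM in the HEL cytosolic libraries, a log2 change of 1.19 ± 0.076 (SE, edgeR adjusted p = 5.17e-09). In MOLM-13 it was 376 and 387 CPM in P-bodies and 95.0 and 103 CPM in cytosol, 3.85-fold higher (log2 change 1.95 ± 0.057 SE, edgeR adjusted p = 1.38e-19). All P-body libraries lay above all cytosolic libraries of the same line. PSMC1 reached 184 and 173 CPM in HEL P-bodies against 90.5 and 92.9 CPM in cytosol (1.95-fold, edgeR adjusted p = 7.41e-08), and 169 and 158 CPM against 45.2 and 45.1 CPM in MOLM-13 (3.62-fold, edgeR adjusted p = 3.50e-17), again without overlap. PSMC2, which pairs with PSMC1 in the ring, stood at 271 and 265 CPM against 169 and 164 CPM in HEL (1.61-fold) and at 107 and 104 CPM against 45.0 and 50.5 CPM in MOLM-13 (2.20-fold). The groups did not overlap, and PSMC2 was called in both lines (edgeR adjusted p = 9.53e-07 and 3.04e-12).

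PSMC5 showed a smaller excess, with 264 and 259 CPM in HEL P-bodies against 211 and 211 CPM in cytosol (1.24-fold) and 302 and 316 CPM against 241 and 228 CPM in MOLM-13 (1.32-fold). Its P-body libraries lay above the cytosolic ones in both lines, and it was called in both (edgeR adjusted p = 0.00152 and 2.81e-07), although with library totals the log2 changes were -0.015 and -0.038 and neither was called. The remaining ATPases, PSMC3 and PSMC4, were not called in either line. PSMC3 had 214 and 210.4 CPM in HEL P-bodies and 191 and 210.0 CPM in cytosol, and 232 and 223 CPM and 243 and 228 CPM in MOLM-13. PSMC4 had 158 and 164 CPM and 171 and 177 CPM in HEL and 89.4 and 88.1 CPM and 81.6 and 93.7 CPM in MOLM-13. The fractions differed by little for both genes and overlapped in MOLM-13, with log2 changes of 0.082 ± 0.075 and -0.11 ± 0.074 (SE) in HEL and -0.048 ± 0.053 and 0.013 ± 0.074 in MOLM-13.

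**Figure D2:**
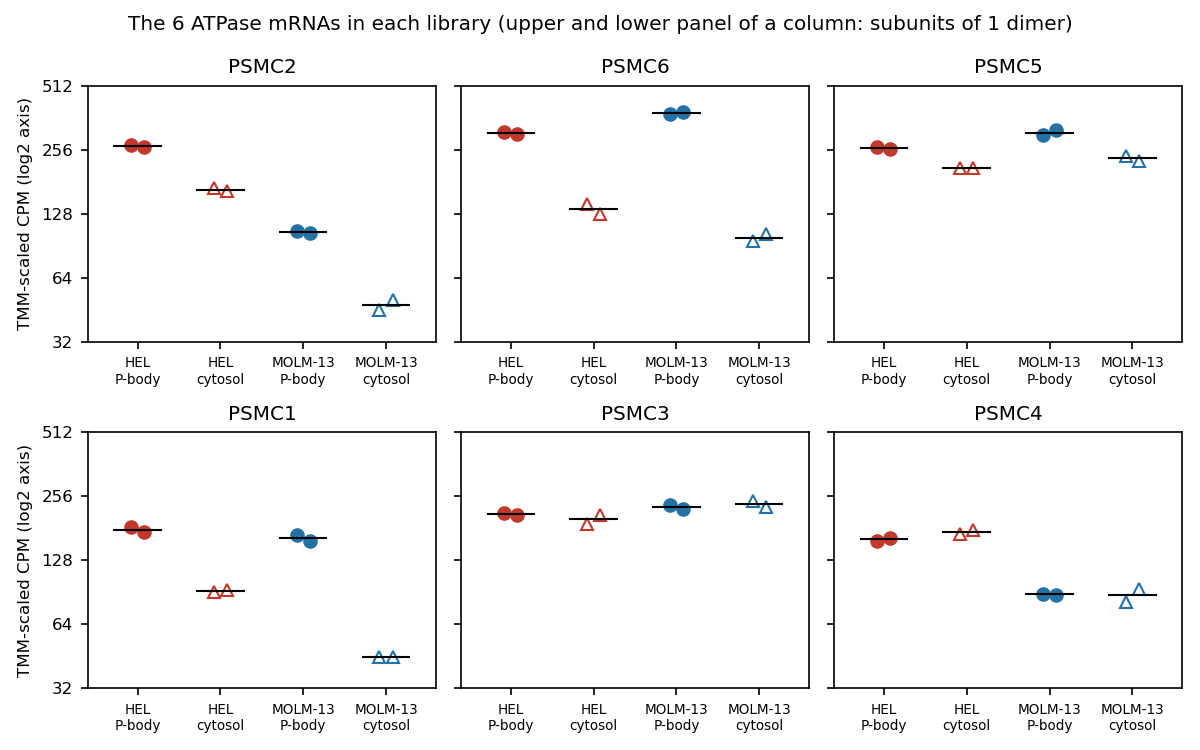
TMM-scaled CPM (y axis, log2 scale) of the 6 ATPase mRNAs in each of the 8 libraries (x axis, by line and fraction), with a bar at the mean of each pair; filled circles are P-body and open triangles cytosolic libraries. PSMC1, PSMC2, PSMC5 and PSMC6 lie higher in P-bodies in both lines, whereas the PSMC3 and PSMC4 points of each line lie close together.

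The ATPases assemble as dimers, PSMC1 with PSMC2, PSMC3 with PSMC6 and PSMC4 with PSMC5, so the count of a subunit per count of its partner gives a ratio within each library that no scaling factor touches and that is not corrected for length. PSMC6 had 1.45 counts per PSMC3 count in each HEL P-body library against 0.745 and 0.611 in cytosol, and 1.62 and 1.74 against 0.392 and 0.449 in MOLM-13. PSMC5 had 1.67 and 1.58 counts per PSMC4 count in HEL P-bodies against 1.24 and 1.19, and 3.38 and 3.59 against 2.95 and 2.43 in MOLM-13. PSMC1 had 0.680 and 0.654 counts per PSMC2 count in HEL P-bodies against 0.537 and 0.566, and 1.58 and 1.52 against 1.00 and 0.895 in MOLM-13. None of the ratios overlapped between the fractions of a line. These ratios are not corrected for base composition: with the trend on GC and length removed, the HEL log2 change of PSMC3 (0.47) was above that of PSMC6 (0.34).

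The PSMC1 counts carry an annotation limit. Its chosen transcript overlaps the opposite-strand gene NRDE2 over 82.2% of its exon bases, and without a known strand setting reads of the shared stretch cannot be assigned. NRDE2 itself was higher in P-bodies, with a log2 change of 0.67 in HEL and 0.55 in MOLM-13 (edgeR adjusted p = 0.000167 and 2.44e-08), smaller than that of PSMC1. The 13 PSMC1 pseudogene symbols in the tables held 6.55% to 12.7% as many counts as PSMC1. PSMC5 overlaps FTSJ3 on the opposite strand over 27.2% of its exon bases, and FTSJ3 was not called in either line (log2 changes -0.15 and -0.079).

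In the lid, PSMD12 and PSMD6 were the members with the largest excess in P-bodies; both are scaffold subunits. PSMD12 was present at 386 and 398 CPM in HEL P-bodies and 195 and 181 CPM in cytosol, 2.08-fold higher (log2 change 1.06 ± 0.072 SE, edgeR adjusted p = 9.81e-09). In MOLM-13 the values were 497 and 491 CPM and 135 and 136 CPM, 3.65-fold higher (log2 change 1.87 ± 0.051 SE, edgeR adjusted p = 4.10e-20). The fractions were far apart in both lines relative to the gap between replicates. PSMD6 measured 219 and 210.5 CPM against 150.1 and 139 CPM in HEL (1.49-fold, edgeR adjusted p = 1.45e-05) and 178 and 184 CPM against 70.4 and 71.3 CPM in MOLM-13 (2.55-fold, edgeR adjusted p = 1.90e-15). PSMD7, the inactive partner of the lid's deubiquitinase, was 1.45-fold higher in HEL and 1.42-fold higher in MOLM-13. PSMD14, the deubiquitinase itself, was called in MOLM-13 (1.32-fold higher) and had a log2 change of 0.10 ± 0.070 SE in HEL; the difference between lines was not called. PSMD7 shares 50.4% of its exon bases with an opposite-strand gene that held 16 to 34 counts per library. With library totals the MOLM-13 calls of PSMD7 and PSMD14 ended (log2 changes 0.063 and -0.035).

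The lid scaffolds did not share a direction. PSMD3 lay at 82.6 and 86.8 CPM in HEL P-bodies against 118 and 119 CPM in cytosol, 1.40-fold lower (edgeR adjusted p = 1.26e-04), and at 22.7 and 26.3 CPM against 25.4 and 23.5 CPM in MOLM-13, where the fractions overlapped and it was not called. PSMD8 had 203 and 219 CPM in HEL P-bodies against 219.4 and 222 CPM in cytosol (not called) and 140.4 and 139 CPM against 187 and 205 CPM in MOLM-13, 1.40-fold lower (edgeR adjusted p = 9.11e-08). PSMD11 had 142 and 143 CPM against 146 and 147 CPM in HEL and 67.0 and 67.3 CPM against 73.8 and 77.3 CPM in MOLM-13. All P-body values of PSMD11 lay below the cytosolic ones, but it was not called in either line (edgeR adjusted p = 0.676 and 0.0522). PSMD13 was not called in either line either, with log2 changes of -0.12 and -0.11.

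In the base, PSMD1 and PSMD2 are the large scaffolds on which ATPases and receptors sit, and they differed. PSMD1 reached 670.4 and 604 CPM in HEL P-bodies against 415 and 412 CPM in cytosol (1.54-fold, edgeR adjusted p = 3.37e-06) and 185 and 195 CPM against 124 and 124 CPM in MOLM-13 (1.53-fold, edgeR adjusted p = 1.37e-09), with no overlap. PSMD2 was 1.19-fold lower in HEL (edgeR adjusted p = 0.00766) and had a log2 change of 0.11 ± 0.064 SE in MOLM-13, not called. The ubiquitin receptor PSMD4 had 222 and 237 CPM against 256 and 263 CPM in HEL and 206 and 197 CPM against 254 and 249 CPM in MOLM-13. It was lower in both lines without overlap (1.13-fold and 1.25-fold, edgeR adjusted p = 0.0469 and 9.66e-06). ADRM1, the other ubiquitin receptor, had 105 and 107 CPM against 93.4 and 109 CPM in HEL, where the fractions overlapped, and 36.8 and 40.3 CPM against 50.9 and 46.5 CPM in MOLM-13, where it was 1.26-fold lower (edgeR adjusted p = 0.00405). ADRM1 shares 24.1% of its exon bases with opposite-strand genes, among them LAMA5. The MOLM-13 call of ADRM1 ended with DESeq2 (DESeq2 adjusted p = 0.153). The HEL calls of PSMD2 and PSMD4 ended with DESeq2 (DESeq2 adjusted p = 0.0606 and 0.236). With RLE factors these 2 calls also ended (edgeR adjusted p = 0.0994 and 0.256).

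Alpha-ring mRNAs lay mostly above the cytosolic level in MOLM-13. PSMA4 was called in both lines, 1.43-fold higher in HEL and 1.71-fold in MOLM-13 (edgeR adjusted p = 2.21e-05 and 1.21e-12). PSMA3 had 181 and 181 CPM in HEL P-bodies against 179.5 and 155 CPM in cytosol (not called), and 226 and 229.9 CPM against 138 and 149 CPM in MOLM-13, 1.59-fold higher (edgeR adjusted p = 2.07e-10). The gap was wider in MOLM-13 than in HEL, and the difference between lines was itself called (log2 0.36 ± 0.11 SE, edgeR adjusted p = 0.0173), though not without MOLM-13 P-body replicate 2 or MOLM-13 cytosol replicate 1 (0.35 and 0.30, adjusted p = 0.0609 and 0.0992). PSMA1, PSMA5 and PSMA6 were called higher in MOLM-13, by 1.54-fold, 1.28-fold and 1.49-fold, and were not called in HEL, without a called difference between lines. The PSMA6 call ended with DESeq2 (log2 change 0.63, adjusted p = 0.0953), with library totals (0.14) and without MOLM-13 P-body replicate 2 (0.40), and that of PSMA5 with library totals (-0.081).

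PSMA7 went the other way from its ring in MOLM-13. Among tested alpha genes PSMA7 alone had G or C at more than 50% of last codon positions (62.1%). It had 580.2 and 609 CPM in HEL P-bodies against 515 and 511 CPM in cytosol, 1.16-fold higher (edgeR adjusted p = 0.015). In MOLM-13 it had 536 and 553 CPM against 778 and 721 CPM, 1.38-fold lower (edgeR adjusted p = 3.44e-09). The fractions were separate in both lines and in opposite order; with library totals the HEL value was -0.11 on the log2 scale and not called. Low levels limit 3 alpha genes whose exons are shared on the same strand with read-through genes: 59.5% of exon bases in PSMA1, 52.5% in PSMA2 and 80.3% in PSMA6. PSMA2 had 6 to 24 counts per library and PSMA6 61 to 192. Per kilobase of transcript the HEL P-body levels were 0.627 CPM for PSMA2 and 13.8 CPM for PSMA6, against 187 CPM for PSMA3 and 597 CPM for PSMA7. The read-through genes themselves held 0 to 3 counts per library, and whether reads of the shared exons were set aside in counting was not tested.

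Beta-ring mRNAs were more often lower than higher in MOLM-13. PSMB4, a structural beta subunit, had 70.9 and 75.4 CPM in HEL P-bodies against 56.5 and 58.3 CPM in cytosol, 1.27-fold higher (edgeR adjusted p = 0.00416), and 102 and 104 CPM against 148 and 130.2 CPM in MOLM-13, 1.35-fold lower (edgeR adjusted p = 5.62e-06). Like PSMA7 it was separate and in opposite order in the lines, and its HEL call ended with library totals (log2 change 0.024). PSMB2 was 1.21-fold and 1.19-fold lower in P-bodies of HEL and MOLM-13. DESeq2 did not call it in MOLM-13 (DESeq2 adjusted p = 0.138). PSMB3 had 130.0 and 138 CPM against 142 and 140.1 CPM in HEL (not called) and 158 and 161 CPM against 221 and 207 CPM in MOLM-13, 1.34-fold lower (edgeR adjusted p = 3.55e-07). Its P-body values lay below the cytosolic ones in both lines, by little in HEL. PSMB1 was called higher in MOLM-13, by 1.09-fold.

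The catalytic subunits exist in a constitutive set, PSMB5 (chymotrypsin-like), PSMB6 (caspase-like) and PSMB7 (trypsin-like), and an interferon-inducible set, PSMB8, PSMB9 and PSMB10, that replaces them in the immunoproteasome. PSMB5 had 136 and 127 CPM in HEL P-bodies against 143 and 134 CPM in cytosol, and 128 and 143 CPM against 136 and 137 CPM in MOLM-13. PSMB7 had 136 and 151 CPM against 147 and 137 CPM in HEL and 122 and 128 CPM against 121 and 128 CPM in MOLM-13. For both genes the fractions overlapped in both lines and neither was called. PSMB6 had 119.8 and 126 CPM against 128 and 126 CPM in HEL (not called), and 157 and 165 CPM against 196 and 199 CPM in MOLM-13, 1.23-fold lower (edgeR adjusted p = 6.69e-05).

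Of the inducible subunits, PSMB8 had 148 and 145 CPM against 172 and 166 CPM in HEL and 121 and 128 CPM against 146 and 149 CPM in MOLM-13. PSMB10 had 21.6 and 23.0 CPM against 26.0 and 31.7 CPM in HEL and 49.8 and 52.6 CPM against 66.0 and 65.2 CPM in MOLM-13. Both were lower in P-bodies of both lines without overlap, PSMB8 by 1.15-fold and 1.18-fold and PSMB10 by 1.30-fold and 1.28-fold (edgeR adjusted p = 0.0334, 0.00143, 0.0228 and 5.47e-04). PSMB9 had 145 and 158 CPM against 153 and 160.1 CPM in HEL and 36.5 and 38.4 CPM against 39.2 and 43.3 CPM in MOLM-13, and was not called. DESeq2 called neither PSMB8 nor PSMB10 in either line (adjusted p = 0.211 and 0.0945 for PSMB8, and 0.137 and 0.0602 for PSMB10). PSMB10 shares 45.3% of its exon bases with a same-strand gene.

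Core-particle chaperones act in pairs, PSMG1 with PSMG2 and PSMG3 with PSMG4 on the alpha ring, before POMP guides the beta subunits into place. POMP had 204 and 232 CPM in HEL P-bodies against 191 and 184 CPM in cytosol and 400.2 and 418 CPM against 334 and 344 CPM in MOLM-13. It was higher in both lines without overlap (1.16-fold and 1.21-fold, edgeR adjusted p = 0.0302 and 2.36e-05). PSMG4 had 9.28 and 9.63 CPM against 13.6 and 12.3 CPM in HEL and 44.4 and 39.2 CPM against 60.9 and 60.5 CPM in MOLM-13, 1.37-fold and 1.45-fold lower (edgeR adjusted p = 0.0215 and 1.26e-05). Its partner PSMG3 had 31.6 and 37.4 CPM against 33.7 and 34.6 CPM in HEL, where the fractions overlapped, and 70.1 and 66.2 CPM against 103 and 103 CPM in MOLM-13, 1.51-fold lower (edgeR adjusted p = 7.88e-08). PSMG1 and PSMG2 were called lower in HEL, by 1.26-fold and 1.20-fold, and were not called in MOLM-13 (log2 changes -0.034 and -0.041), with no called difference between lines. The HEL calls of PSMG2 and PSMG4 ended with DESeq2 (DESeq2 adjusted p = 0.2235 and 0.182).

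The PSMD genes PSMD5, PSMD9 and PSMD10 are chaperones of the base and leave the finished particle. PSMD5 binds the dimer of PSMC1 and PSMC2, PSMD9 that of PSMC3 and PSMC6, and PSMD10 that of PSMC4 and PSMC5. PSMD10 had 95.7 and 91.9 CPM in HEL P-bodies against 73.5 and 66.9 CPM in cytosol, 1.34-fold higher (edgeR adjusted p = 9.15e-04), and 56.1 and 50.04 CPM against 22.6 and 26.1 CPM in MOLM-13, 2.17-fold higher (edgeR adjusted p = 1.56e-09). PSMD9 had 6.96 and 8.26 CPM against 6.65 and 7.96 CPM in HEL, overlapping, and 7.75 and 7.71 CPM against 11.1 and 11.5 CPM in MOLM-13, 1.46-fold lower (edgeR adjusted p = 0.0131). PSMD5 was not called, with log2 changes of -0.14 ± 0.086 SE in HEL and 0.17 ± 0.12 SE in MOLM-13. The 3 chaperones thus had no common direction. PSMD10 was higher in both lines, as was PSMC5, while PSMC4 was not called. PSMD9 was lower in MOLM-13, where PSMC6 was higher and PSMC3 was not called. The PSMD9 call ended with DESeq2 (log2 change -0.50, DESeq2 adjusted p = 0.246) and without a filter on low counts (-0.51, edgeR adjusted p = 0.0514). PSMD9 has 43.8% of its exon bases in common with same-strand genes.

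PSMF1, which inhibits the core particle in the test tube, was the only member called lower in both lines under every alternative tried. It had 46.8 and 48.4 CPM in HEL P-bodies against 73.0 and 79.9 CPM in cytosol, a log2 change of -0.68 ± 0.093 (SE, edgeR adjusted p = 1.84e-05). In MOLM-13 it had 50.1 and 52.8 CPM against 79.7 and 74.4 CPM, a log2 change of -0.58 ± 0.081 (SE, edgeR adjusted p = 8.51e-07). The fractions were separate in both lines.

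The alternative caps of the core particle are encoded by PSME1 and PSME2, whose products form the interferon-inducible ring, by PSME3, a nuclear activator, and by PSME4. PSME1 had 170.0 and 179 CPM in HEL P-bodies against 213 and 201 CPM in cytosol and 184 and 183 CPM against 252 and 255 CPM in MOLM-13, 1.19-fold and 1.38-fold lower without overlap (edgeR adjusted p = 0.0111 and 2.30e-08). Its HEL call ended with RLE factors (edgeR adjusted p = 0.0778) and with DESeq2 (DESeq2 adjusted p = 0.0639). PSME2 had 86.0 and 95.7 CPM against 101 and 102 CPM in HEL and 129 and 130.2 CPM against 132 and 128 CPM in MOLM-13, and was not called. In MOLM-13 the count of PSME2 per count of PSME1 was 0.703 and 0.713 in P-bodies against 0.524 and 0.503 in cytosol, while in HEL it was 0.506 and 0.535 against 0.473 and 0.507, overlapping. PSME3 had 130.4 and 125 CPM against 179 and 166 CPM in HEL, 1.35-fold lower (edgeR adjusted p = 2.71e-04), and 49.1 and 48.1 CPM against 37.3 and 50.4 CPM in MOLM-13, where the fractions overlapped. PSME4 had 67.1 and 58.6 CPM against 60.9 and 58.2 CPM in HEL and 48.2 and 51.1 CPM against 44.1 and 47.0 CPM in MOLM-13, and was not called in either line.

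Composition of the coding sequence, which the choice of members did not use, went with the change. Over the 48 tested members the share of G or C at the last codon position (GC3) had a Pearson correlation of -0.43 (Spearman -0.41) with the log2 change in HEL and of -0.67 (Spearman -0.77) in MOLM-13. Over all tested coding genes the Pearson values were -0.61 and -0.70, so members followed a relation seen across the transcriptome. GC content of the whole transcript gave -0.504 and -0.675 for members and -0.633 and -0.70 for all tested coding genes. The relation was thus not particular to the coding sequence. The points share libraries and length, and these values are a description across genes. Of the 20 members with a GC3 below 50%, 9 were higher and 2 lower in HEL, and 15 were higher in MOLM-13 while the other 5 were not called. Of the 28 members with a GC3 of 50% or more, 4 were higher and 10 lower in HEL, and 2 were higher and 15 lower in MOLM-13. Of all tested coding genes in that class 12.3% were higher and 43.7% lower in HEL, and 15.9% and 42.8% in MOLM-13. Among all tested coding genes 62.2% of those below 50% were higher in HEL and 73.8% in MOLM-13, against 45% and 75% of the members. In MOLM-13 the members called higher had a median GC3 of 42.54% and those called lower 67.6%, with ranges of 29.79% to 61.33% and 57.21% to 79.51%. The members with a GC3 of at least 50% that were higher in MOLM-13 were PSMC5 and PSMD7, singled out after their values were seen.

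**Figure D3:**
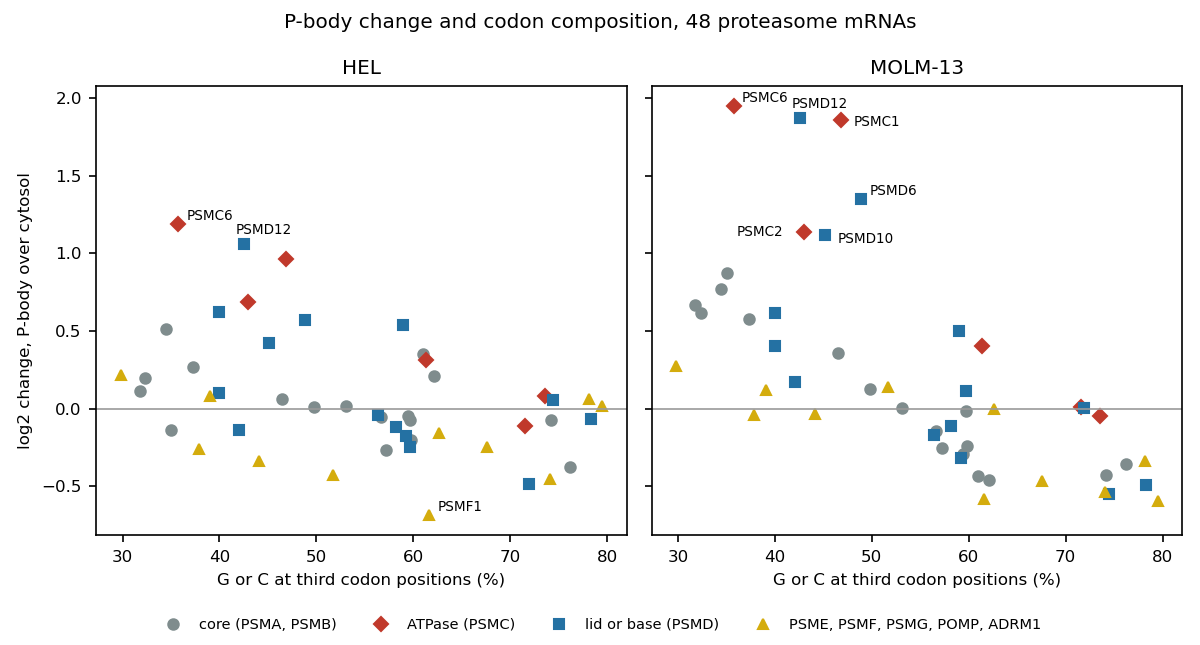
Log2 change of P-body over cytosol (y axis) against the percent of G or C at the last codon position (x axis) for the 48 tested members, in HEL (left) and MOLM-13 (right), by subunit group. Changes fall with rising GC3, and PSMC6, PSMD12 and PSMC1 lie above other members of similar GC3 in both lines.

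Removing from each library the trend on GC content and length fitted over all genes left 17 members higher and 9 lower in HEL, and 22 higher and 12 lower in MOLM-13. Over all genes 3465 were then higher and 3506 lower of 14500 in HEL, and 3606 and 3157 of 13819 in MOLM-13. On this scale 5 of the 6 ATPases were called in HEL and all 6 in MOLM-13, each of them higher. The log2 changes were 1.00 and 1.69 for PSMC1, 0.34 and 1.10 for PSMC6, and 0.54 and 0.51 for PSMC5 in HEL and MOLM-13. They were 0.47 and 0.28 for PSMC3, 0.25 and 0.30 for PSMC4, and -0.033 (not called) and 0.30 for PSMC2. PSMC2 was thus the ATPase whose HEL call ended, whereas PSMC3 and PSMC4, not called without the correction, were called with it. PSMD12 kept 0.25 and 1.01, PSMD6 0.34 and 1.05, and PSMF1 -0.74 and -0.83. POMP turned from higher to lower in both lines, at -0.71 and -0.34, as did PSMA5 in MOLM-13, at -0.51. The lower calls of PSMB8, PSMB10, PSMD3 and PSMD4 ended in each line where they had been made, and so did those of PSMD2, PSME1, PSMG2 and PSMG4 in HEL. In MOLM-13 the lower calls of PSMB3, PSMD8 and PSMG3 ended, those of ADRM1, PSMB6 and PSMG4 turned to higher calls (0.33, 0.19 and 0.22), and the higher calls of PSMA6, PSMD1 and PSMD14 ended (0.34, 0.14 and 0.037). PSMA4 remained called in MOLM-13 (0.14) and not in HEL (0.065), and PSMD10 likewise (0.52 and -0.13).

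Fewer of the small changes in HEL were called when a library was left out. Each such fit left a group with 1 library, and the lower calls over all tested genes became fewer as well, whichever library was left out. Whether the loss was particular to the members was not tested. PSMB8 and PSMD4 lost their lower call whichever library was left out, and PSMB10, PSMD2, PSME1, PSMG2 and PSMG4 lost theirs without 2 or 3 of the 4, as POMP and PSMA7 lost their higher call. For PSMA7 the log2 change was 0.21 and 0.20 where the call ended, against 0.21 with all libraries. It moved by more than 1.5 times for PSMB8 and PSMD2 without P-body replicate 2 (-0.10 and -0.11, against -0.20 and -0.25) and for PSMB10 without cytosol replicate 2 (-0.22, against -0.37). The lower calls of PSMB2, PSMD3, PSME3, PSMF1 and PSMG1 held without each library in turn. In MOLM-13 the calls that ended without a library were those of ADRM1, PSMA6, PSMB1, PSMB8 and PSMD9.

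Between the lines the changes ran in parallel for most members. The Pearson correlation of the log2 changes over 48 members was 0.80 (Spearman 0.60), and 36 had the same sign, as a description across genes that share composition. In both lines 11 members were called higher, namely POMP, PSMA4, PSMC1, PSMC2, PSMC5, PSMC6, PSMD1, PSMD6, PSMD7, PSMD10 and PSMD12. Another 7 were called lower in both, namely PSMB2, PSMB8, PSMB10, PSMD4, PSME1, PSMF1 and PSMG4. PSMA7 and PSMB4 were higher in HEL and lower in MOLM-13. Of all tested genes 27.5% were called higher in HEL and 32.4% in MOLM-13, and 27.1% and 28.5% lower. The correlation and the counts called alike in both lines are not given here for all genes. Whether members agreed between lines more than other genes was not tested. Of the 11 higher in both lines, PSMC1, PSMC6, PSMD6 and PSMD12 stayed called under every alternative tried in both lines, and so did PSMF1 of the 7 lower in both.

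The difference between lines was tested as the interaction, MOLM-13 minus HEL, over all 8 libraries. It need not equal the gap between the changes fitted within each line, since its TMM factors came from all 8 libraries. For PSMB1 the changes were 0.011 in HEL and 0.13 in MOLM-13, with a difference of -0.074. The difference was called for 22.2% of 17477 genes, with 9.15% higher in MOLM-13 and 13% lower, and for 6 members higher and 12 lower. The excess in P-bodies was larger in MOLM-13 for PSMC1 (log2 difference 0.70 ± 0.11 SE, edgeR adjusted p = 6.42e-05), PSMD12 (0.62 ± 0.089, edgeR adjusted p = 2.46e-05), PSMD6 (0.59 ± 0.10, edgeR adjusted p = 1.88e-04) and PSMC6 (0.57 ± 0.099, edgeR adjusted p = 2.14e-04). It was smaller or reversed for PSMB4 (-0.97 ± 0.12, edgeR adjusted p = 2.67e-06), PSMA7 (-0.86 ± 0.081, edgeR adjusted p = 1.91e-07) and PSMG3 (-0.80 ± 0.14, edgeR adjusted p = 1.61e-04). These 7 members were called under every alternative tried. With TMM factors computed within each line the counts over all members changed from 6 higher and 12 lower to 12 higher and 6 lower. Over all genes 1600 higher and 2275 lower became 2625 and 1401. Without HEL P-body replicate 1, HEL cytosol replicate 1 or HEL cytosol replicate 2 the members' counts were 17 and 5, 13 and 3, and 15 and 5, and those of all genes 3441 and 1215, 3053 and 915, and 2825 and 880.

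**Figure D4:**
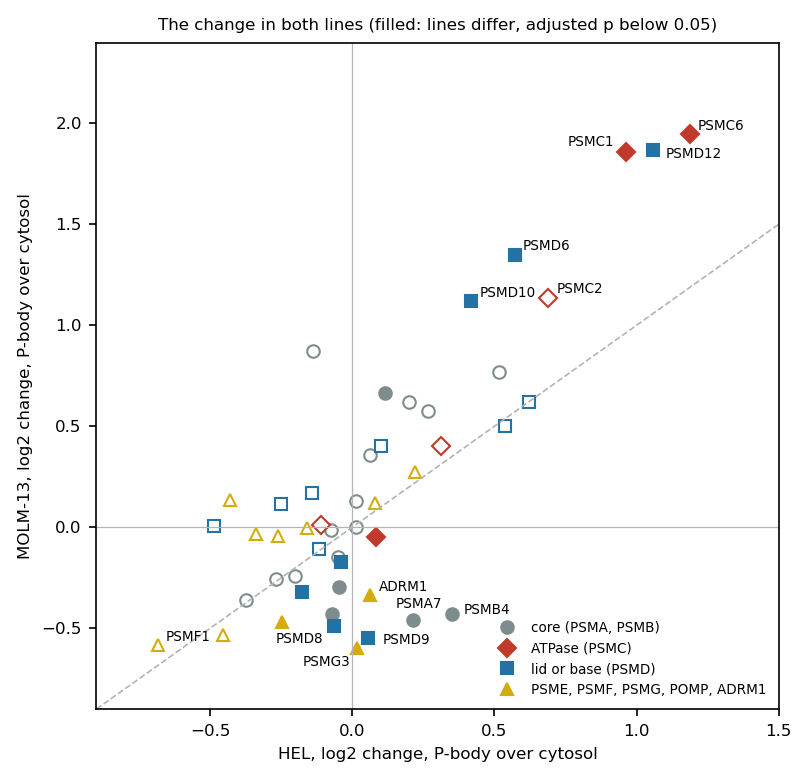
Log2 change of P-body over cytosol in HEL (x axis) and MOLM-13 (y axis) for the 48 tested members, by subunit group. Filled symbols mark a difference between lines with an adjusted p below 0.05 in the interaction test over all 8 libraries. The dashed line marks equal changes in the fits within each line. The test used other TMM factors, so the distance from the dashed line is not the tested difference. PSMC1, PSMC6, PSMD12, PSMD6 and PSMD10 lie above the line, and PSMB4 and PSMA7 lie below it, higher in HEL and lower in MOLM-13.

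Levels in the cytosolic fraction differed between the lines for most members, as for most genes: 84.4% of 17477 genes were called, 44.2% higher in MOLM-13 and 40.1% lower, and 16 members were higher and 22 lower. The median log2 difference of the members was -0.076 against 0.13 over all genes. In MOLM-13 the 14 PSMD genes had 10 lower and 2 higher calls (median -0.87), of the 6 ATPases 4 were lower and 2 higher (median -0.60), and of the 17 core genes 7 were higher and 4 lower (median 0.082). PSMG1 was 6.74-fold lower in MOLM-13, PSMD2 5.53-fold, PSMD14 4.51-fold and PSMD3 4.49-fold (edgeR adjusted p = 2.38e-17, 2.65e-18, 1.73e-16 and 1.01e-14). PSMG4 was 5.08-fold higher, PSMG3 3.27-fold, PSMB4 2.62-fold and PSMB10 2.46-fold (edgeR adjusted p = 8.07e-14, 4.08e-13, 9.54e-13 and 4.67e-10). The chaperone pairs thus differed, with PSMG3 and PSMG4 both higher in MOLM-13 while PSMG1 was lower and PSMG2 was not called. Each line has its own table, so line and any batch between the tables cannot be told apart.

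**Figure D5:**
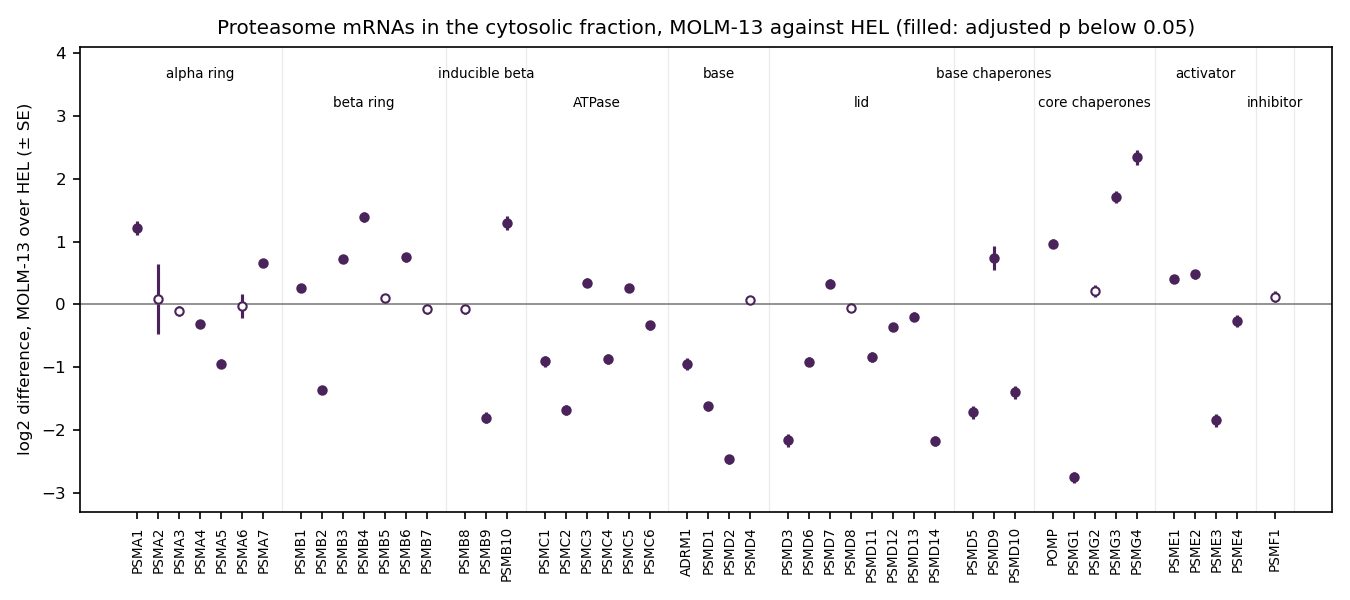
Log2 difference of MOLM-13 over HEL in the cytosolic fraction (y axis, with SE) for the 48 tested members ordered by role (x axis); filled symbols mark an adjusted p below 0.05. PSMG1 lies lowest at -2.75 and PSMG4 highest at 2.35, and most lid and base genes lie below 0.

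The inducible catalytic subunits differed between the lines each in its own way. PSMB9 was 3.49-fold lower in MOLM-13 cytosol (edgeR adjusted p = 3.08e-14), PSMB10 was higher, as above, and PSMB8 had a log2 difference of -0.078 ± 0.069 SE and was not called. Counts of PSMB9 per count of PSMB6, the subunit it replaces, were 1.21, 1.25, 1.20 and 1.27 in the 4 HEL libraries and 0.233, 0.233, 0.201 and 0.218 in the 4 MOLM-13 libraries. The lines did not overlap in this ratio, and within each line the fractions differed little. Counts of PSMB10 per PSMB7 count were 0.159 and 0.152 in HEL P-bodies against 0.176 and 0.231 in cytosol, and 0.407 and 0.413 against 0.547 and 0.508 in MOLM-13, lower in P-bodies of both lines.

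Genes that work with the proteasome were called in both directions. Of 23 partners and regulators on a list, 5 rose and 7 fell in P-bodies of HEL, and 12 rose and 6 fell in MOLM-13 (medians -0.048 and 0.23), against 27.5% and 27.1% of all tested genes in HEL and 32.4% and 28.5% in MOLM-13. UBLCP1, the phosphatase of the regulatory particle, was 3.37-fold higher in HEL and 5.50-fold in MOLM-13 (edgeR adjusted p = 8.04e-10 and 3.72e-19). UCHL5, the deubiquitinase held by ADRM1, was 2.10-fold and 4.18-fold higher (edgeR adjusted p = 6.80e-09 and 2.57e-20). Its mean level was 665 ± 16.3 CPM in HEL P-bodies against 317 ± 16.6 CPM in cytosol and 473 ± 21.2 CPM against 113 ± 2.47 CPM in MOLM-13 (SD, n = 2), while ADRM1 itself was not called in HEL and was lower in MOLM-13. USP14, the other deubiquitinase that docks on the particle, was 2.05-fold and 2.80-fold higher, and is named after its values were seen. NFE2L1, the transcription factor that drives proteasome genes when the protease is inhibited, was 1.74-fold and 1.79-fold lower (edgeR adjusted p = 1.88e-04 and 3.71e-07). The shuttle factor UBQLN2 was also lower in HEL (1.74-fold). SEM1, a lid subunit whose symbol the choice of members does not take, had a log2 change of 0.19 ± 0.12 SE in HEL (not called) and was 1.30-fold lower in MOLM-13 (edgeR adjusted p = 1.41e-07).

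The enzymes that activate ubiquitin moved apart: UBA1 was 2.23-fold and 1.66-fold lower in P-bodies of HEL and MOLM-13 (edgeR adjusted p = 2.63e-08 and 2.98e-09), whereas UBA6 was 1.97-fold and 1.76-fold higher (edgeR adjusted p = 4.62e-08 and 6.21e-08).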

How the data were processed

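The authors deposited a table per line with raw counts of reads per gene symbol. Per the submitters' processing notes STAR, SAMtools 1.12 and DESeq2 were used with the build GRCh38, and per the labels RNA came from a miRNeasy Micro kit and went into NEBNext Ultra II libraries. The sources used here do not give the counter, annotation release or strand setting. Each table had 61544 rows; 112 symbols on 1348 rows were left out, since such a symbol names no single gene, which removed 0.0193% to 0.0477% of counts per library.

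Counts were tested with edgeR 4.0.16 in R 4.3.3 (quasi-likelihood, TMM factors, filterByExpr with a minimum count of 10, Benjamini-Hochberg adjustment over all genes), within each line and, for differences between lines, over all 8 libraries. The P-body libraries had TMM factors of 0.884 to 0.903 (HEL) and 0.858 to 0.86 (MOLM-13), and the cytosolic ones 1.12 and 1.16 to 1.17. Changes are relative to the other genes of a library. Replicates differed by more than sampling noise (chi-square per degree of freedom 1.87 to 6.15). On simulated data with these depths, the test recovered 80.6% of 98 genes changed 2-fold among 14468 in HEL. In MOLM-13 it recovered 77.1% of 96 among 13576. Of the genes called, 5.52% and 6.67% were false, above the 5% aimed at. Another 96 and 94 genes were changed by 2 on the log2 scale. In the data 54.6% and 60.8% of genes were called, so these rates need not hold for them.

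All 50 members were matched to GENCODE release 29 on GRCh38, by the transcript with the longest coding sequence. Alternatives were RLE factors, library totals, other filters, DESeq2 1.42.0, removal of a smooth trend on GC content and log length (mgcv 1.9.3), a replicate block and leaving out each library; TMM factors within each line were added after seeing the data. The members and lists were chosen with earlier results of these data known. Values in every library are given for the 5 highest and 5 lowest called members of each line, members called in the difference between lines or below the filter, all ATPases, the catalytic subunits, activators, PSMF1, POMP and ADRM1; of the other lists the 2 highest and 2 lowest called genes are named, apart from some that are not reported here.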

Additional observations from a re-analysis of the deposited data

Results flagged for a closer look

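For 18 members the change between P-body and cytosol differed between the lines by the interaction test in edgeR, given here as the log2 difference, MOLM-13 minus HEL. It was positive for PSMC1 (0.70, adjusted p = 6.42e-05), PSMD12 (0.62, adjusted p = 2.46e-05), PSMD6 (0.59, adjusted p = 1.88e-04), PSMC6 (0.57, adjusted p = 2.14e-04), PSMD10 (0.51, adjusted p = 0.0135) and PSMA3 (0.36, adjusted p = 0.0173). It was negative for the core genes PSMB4 (-0.97, adjusted p = 2.67e-06), PSMA7 (-0.86, adjusted p = 1.91e-07), PSMB3 (-0.55, adjusted p = 2.44e-04) and PSMB6 (-0.44, adjusted p = 0.00206). The regulatory particle gave PSMD8 (-0.61, adjusted p = 9.40e-05), ADRM1 (-0.59, adjusted p = 0.00287), PSMD4 (-0.33, adjusted p = 0.0106), PSMD11 (-0.32, adjusted p = 0.0329) and PSMC3 (-0.32, adjusted p = 0.0188). The chaperones PSMG3 (-0.80, adjusted p = 1.61e-04) and PSMD9 (-0.79, adjusted p = 0.035) and the activator PSME1 (-0.41, adjusted p = 0.00223) were also negative.

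PSMA7 and PSMB4 are the members called in opposite directions, higher in P-bodies of HEL and lower in those of MOLM-13. The calls of PSMC1, PSMC6, PSMD6, PSMD12, PSMA7, PSMB4 and PSMG3 stood under all alternatives tried. Each of the other 11 was not called under at least 1 alternative. PSMD10 was not called without MOLM-13 P-body replicate 1 or MOLM-13 cytosol replicate 1 (0.42 and 0.41), PSMA3 not without MOLM-13 P-body replicate 2 or MOLM-13 cytosol replicate 1 (0.35 and 0.30), and PSMD8 not without HEL cytosol replicate 1 (-0.31). PSMB3 was not called without HEL cytosol replicate 1 or 2 (-0.26 and -0.25). ADRM1 was not called without HEL P-body replicate 1 or HEL cytosol replicate 1 (-0.29 and -0.19) or after removal of the GC and length trend (-0.29). PSMB6 and PSME1 were not called without HEL P-body replicate 1 (-0.16 and -0.13), HEL cytosol replicate 1 (-0.15 and -0.15) or HEL cytosol replicate 2 (-0.14 and -0.087). PSMC3, PSMD4 and PSMD11 were not called with TMM factors within each line (-0.13, -0.14 and -0.13), nor without HEL P-body replicate 1 (0.0062, -0.064 and -0.012), HEL cytosol replicate 1 (0.043, -0.016 and -0.018) or HEL cytosol replicate 2 (-0.11, -0.067 and -0.041). PSMD9 was not called without any one library, with values of -0.82 to -0.37.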

How the results depend on the processing

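Under all alternatives tried, PSMC1, PSMC6, PSMD6 and PSMD12 kept their higher call and PSMF1 its lower call in both lines, and 7 of the 18 differences between lines were kept. Library totals changed the sign of several values: in HEL the log2 change became -0.26 for ADRM1, -0.11 for POMP, -0.21 for PSMA3, -0.26 for PSMA5, -0.11 for PSMA7, -0.31 for PSMB1, -0.31 for PSMB7, -0.24 for PSMC3, -0.015 for PSMC5, -0.22 for PSMD14, -0.25 for PSME4 and -0.31 for PSMG3, and in MOLM-13 -0.17 for POMP, -0.081 for PSMA5, -0.31 for PSMB1, -0.44 for PSMB7, -0.43 for PSMC4, -0.038 for PSMC5, -0.32 for PSMD2, -0.43 for PSMD3, -0.035 for PSMD14, -0.30 for PSME3 and -0.32 for PSME4. With totals 8 members were higher and 31 lower in HEL and 10 and 31 in MOLM-13. Over all genes 2762 were then higher and 6761 lower of 14772 in HEL, and 2903 and 7154 of 14089 in MOLM-13. The group medians were -0.31 (core), 0.17 (ATPase) and -0.32 (lid or base) in HEL and -0.45, 0.33 and -0.30 in MOLM-13. Removing the trend on GC content and length gave, in HEL, -0.71 for POMP, -0.50 for PSMA3, -0.76 for PSMA5, 0.22 for PSMB3, 0.29 for PSMB6, 0.13 for PSMB8, 0.33 for PSMB9, 0.11 for PSMB10, -0.033 for PSMC2, 0.25 for PSMC4, 0.13 for PSMD2, 0.0003 for PSMD3, 0.11 for PSMD4, 0.35 for PSMD8, -0.13 for PSMD10, 0.022 for PSME1 and -0.47 for PSME4. In MOLM-13 it gave 0.33 for ADRM1, -0.34 for POMP, -0.51 for PSMA5, 0.028 for PSMB3, 0.15 for PSMB5, 0.19 for PSMB6, 0.13 for PSMB8, 0.43 for PSMB9, 0.18 for PSMB10, 0.28 for PSMC3, -0.52 for PSMD5, 0.25 for PSME2, -0.55 for PSME4 and 0.22 for PSMG4. For the difference between lines it gave 0.26 for POMP, with 11 members higher and 2306 of 17018 genes higher. For the cytosolic fractions of the lines it gave 0.27 for PSMA4, -0.40 for PSMB1, -0.21 for PSMB3, -0.24 for PSMB5, -0.10 for PSMB6, -0.25 for PSMD4, 0.23 for PSMD12, -0.079 for PSME1, -0.29 for PSME2 and 0.13 for PSME4. The medians with the trend removed were 0.096 (core), 0.40 (ATPase) and 0.12 (lid or base) in HEL and 0.15, 0.41 and 0.088 in MOLM-13. A minimum of 5 CPM in 2 libraries turned the difference between cytosols to 0.17 for PSMB7, 0.16 for PSMB8, 0.19 for PSMD8 and 0.043 for PSMD13, and moved the MOLM-13 medians of core and lid or base to -0.17 and 0.052. Without a filter the cytosol differences were -0.029 for PSMB1, -0.023 for PSMC5 and -0.22 for PSMD4. In that comparison 9 members and 8122 of 43811 genes were higher. In the difference between lines 7 members and 1594 of 43811 genes were lower.

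RLE factors left 7 lower calls in HEL, with medians of 0.55 (ATPase) and 0.057 (lid or base). DESeq2 left 5, with a median of 0.55 for the ATPases and of 0.19 for the MOLM-13 lid or base. Both ended the HEL calls of PSMB8, PSMD2, PSMD4, PSME1 and PSMG2, and DESeq2 also those of PSMB10 and PSMG4. In MOLM-13 DESeq2 ended the lower calls of ADRM1, PSMB2, PSMB8, PSMB10 and PSMD9 and the higher call of PSMA6. Over all genes the lower calls in HEL were 3600 of 14772 with RLE factors and 2593 of 15442 with DESeq2. With TMM factors within each line 12 members were higher and 6 lower in the difference between lines, and the median of all genes moved from -0.11 to 0.076. Leaving out each library in turn, HEL had 11 to 13 higher and 5 to 8 lower calls and MOLM-13 16 to 18 and 13 to 15; the difference had 4 to 17 higher and 3 to 13 lower calls, and the cytosol 12 to 16 and 21 to 26. The medians ranged from -0.020 to 0.090 (core), 0.49 to 0.60 (ATPase) and -0.062 to 0.044 (lid or base) in HEL, and from -0.069 to 0.050, 0.78 to 0.81 and 0.16 to 0.18 in MOLM-13. The difference ranged from -0.12 to 0.28 for PSMB1, turning to 0.23 without HEL P-body replicate 1, and from -0.36 to 0.043 for PSMC3, turning to 0.0062 without that library and to 0.043 without HEL cytosol replicate 1. In the cytosol comparison PSMB1, PSMC5 and PSMD7 were not called without HEL cytosol replicate 1 (0.18, 0.12 and 0.16) or replicate 2 (0.061, 0.13 and 0.21), PSMC3 without HEL cytosol replicate 1 (0.13) and PSME4 without MOLM-13 cytosol replicate 1 (-0.24). In MOLM-13, ADRM1 was not called without P-body replicate 1 or cytosol replicate 1 (-0.25 and -0.24), PSMA6 without P-body replicate 2 (0.40), PSMB1 without P-body replicate 2 or cytosol replicate 1 (0.12 and 0.11), PSMB8 without P-body replicate 1 (-0.18) and PSMD9 without cytosol replicate 2 (-0.50). The cause of these changes was not tested. Where a group was left with 1 library, that library was assumed to vary like the other groups.

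The labels do not say that replicate numbers pair the libraries, and same-numbered libraries did not deviate together (r = -0.0685 in HEL and -0.0103 in MOLM-13 over tested genes). With the replicate number as a block, 13 members were higher and 12 lower in HEL, 17 and 15 in MOLM-13 and 6 and 11 in the difference; PSMD11 alone lost its call, in the difference (-0.32, edgeR adjusted p = 0.0506). PSMA2, with 6 to 24 counts, had a wide error in both lines (SE 0.46 and 0.49 on the log2 scale).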

Other observations

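Of 9 COP9 signalosome genes, whose complex resembles the proteasome lid, 3 rose and 3 fell in P-bodies of HEL and 5 were higher and 2 lower in MOLM-13 (medians -0.011 and 0.36), where 27.5% and 27.1% of all tested genes were higher and lower in HEL and 32.4% and 28.5% in MOLM-13. COPS2, the counterpart of the lid scaffold subunit PSMD11, was 3.39-fold higher in HEL and 3.99-fold in MOLM-13 (edgeR adjusted p = 1.53e-10 and 1.15e-19), with 362 ± 6.29 CPM against 107 ± 9.7 CPM in HEL and 325 ± 2.51 CPM against 81.4 ± 2.18 CPM in MOLM-13 (SD, n = 2). COPS4, the counterpart of PSMD12, was 1.48-fold and 2.67-fold higher. GPS1, the counterpart of PSMD6, was 1.31-fold and 1.56-fold lower (edgeR adjusted p = 9.49e-04 and 3.44e-06). COPS7A was lower in HEL (1.28-fold) and COPS7B in MOLM-13 (1.22-fold).

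VCP is the ATPase that extracts ubiquitinated proteins for the proteasome. Of 12 genes of VCP and its cofactors, 5 were higher and 3 lower in HEL and 6 higher and 4 lower in MOLM-13 (medians 0.056 and 0.27), beside the same shares of all genes. VCP was 1.65-fold lower in HEL P-bodies (edgeR adjusted p = 7.43e-07) and 1.38-fold lower in MOLM-13. The cofactor UBXN7 was 1.87-fold and 2.91-fold higher (edgeR adjusted p = 9.17e-08 and 1.60e-17). UBXN4 was 1.69-fold higher in HEL and UBXN2A 1.92-fold in MOLM-13. NPLOC4 and UBXN1 were 1.52-fold and 1.56-fold lower in MOLM-13. FAF1 was 1.89-fold lower in HEL, with a wide spread between replicates, 86.1 ± 38.5 CPM against 162 ± 22.1 CPM (SD, n = 2).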
